A study of Arabidopsis thaliana with 15 samples.

Results

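The 8 genes described here belong to the photoperiod branch of flowering control in Arabidopsis thaliana. They are CONSTANS (CO, AT5G15840), its close relatives COL1 (AT5G15850) and COL2 (AT3G02380), the light receptor gene FKF1 (AT1G68050), and the CYCLING DOF FACTOR genes CDF1 (AT5G62430), CDF2 (AT5G39660), CDF3 (AT3G47500) and CDF5 (AT1G69570). They were taken by locus from the 33602 loci counted in every library, and all 8 were found. Whole seedlings of the Col-0 ecotype had been grown for 3 weeks on 1/2 MS medium, without treatment, under an 8 h day and a 16 h night, and their messenger RNA was sequenced. There were 5 genotypes with 3 biological repeats each, giving 15 libraries. Beside the wild type (WT) and the single mutants lhp1 and emf1 stood a double mutant, ebs shl, and a triple mutant, ebs shl lhp1. LHP1, EBS and SHL are proteins that bind modified histone H3, and EMF1 is a plant protein that works with the Polycomb complexes. The labels name no allele, and the time of day of the harvest is not given in the sources used here.

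CO is a B-box and CCT domain protein that switches on the florigen gene FT in leaf phloem companion cells when it is present in the light. The CDF proteins are DOF transcription factors that bind the promoters of CO and FT and keep them low, mostly in the morning. FKF1 is a blue light receptor and F-box protein that, together with GIGANTEA (GI), targets CDF proteins for breakdown in the afternoon of long days. The RNA of all these genes cycles over the day, so that a single harvest samples each at 1 point of its cycle.

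Library totals ranged from 11730989 to 16247262 counts, and 20477 loci passed the filter on low counts. Levels are normalised CPM (counts scaled to a common library size), in which a single count was worth 0.0558 to 0.0948. The RNeasy Plus Mini kit served for WT, lhp1 and ebs shl, whereas the miRNeasy Micro kit served for the 2 other genotypes. For emf1 or ebs shl lhp1 against WT, the kit and the genotype cannot be told apart. EBS RNA was at 24.0 to 27.3 CPM in WT, at 1.67 to 3.36 CPM in ebs shl and at 1.99 to 2.51 CPM in ebs shl lhp1. SHL RNA was higher in both of these, at 204 to 225 CPM and 160 to 222 CPM against 38.1 to 43.6 CPM in WT. LHP1 RNA was 18.5 to 20.8 CPM in WT and 10.1 to 10.8 CPM in lhp1, but 19.3 to 23.3 CPM in the libraries labelled ebs shl lhp1. EMF1 RNA was 27.5 to 28.7 CPM in WT and 21.8 to 23.9 CPM in emf1. It was higher in the other mutants, at 43.5 to 49.5 CPM in lhp1, 116 to 121 CPM in ebs shl and 71.7 to 87.1 CPM in ebs shl lhp1. The LHP1 and SHL levels do not by themselves show the mutations of the libraries labelled as the double and the triple mutant, which are called the labelled double and the labelled triple mutant from here on. Ribosomal RNA was 0.234% to 0.369% of the counts in WT and 0.594% to 1.68% in the libraries made with the second kit.

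In the labelled triple mutant FKF1 RNA was 14.5-fold higher than in WT, COL2 RNA was 6.03-fold lower and CDF1 RNA was 1.87-fold lower. In emf1 only COL2 and CDF1 among the 6 tested genes differed from WT, both lower, by 1.82-fold and 1.53-fold. None of the 6 passed the test in lhp1, nor in the labelled double mutant. CO and COL1 had so few counts in every genotype that they were left out of the test, and CDF2, CDF3 and CDF5 passed it in no comparison. These counts stand against large backgrounds. Of all tested genes, 70.3% differed from WT in the labelled triple mutant (34.6% higher, 35.7% lower) and 64.6% in emf1 (30.7% higher, 33.9% lower), when calls were made by edgeR's quasi-likelihood F test with adjusted p below 0.05. The shares of 3 of 6 and 2 of 6 are therefore no more than those of genes at large, and what can be said concerns the size and direction of each gene's change.

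**Figure D1:**
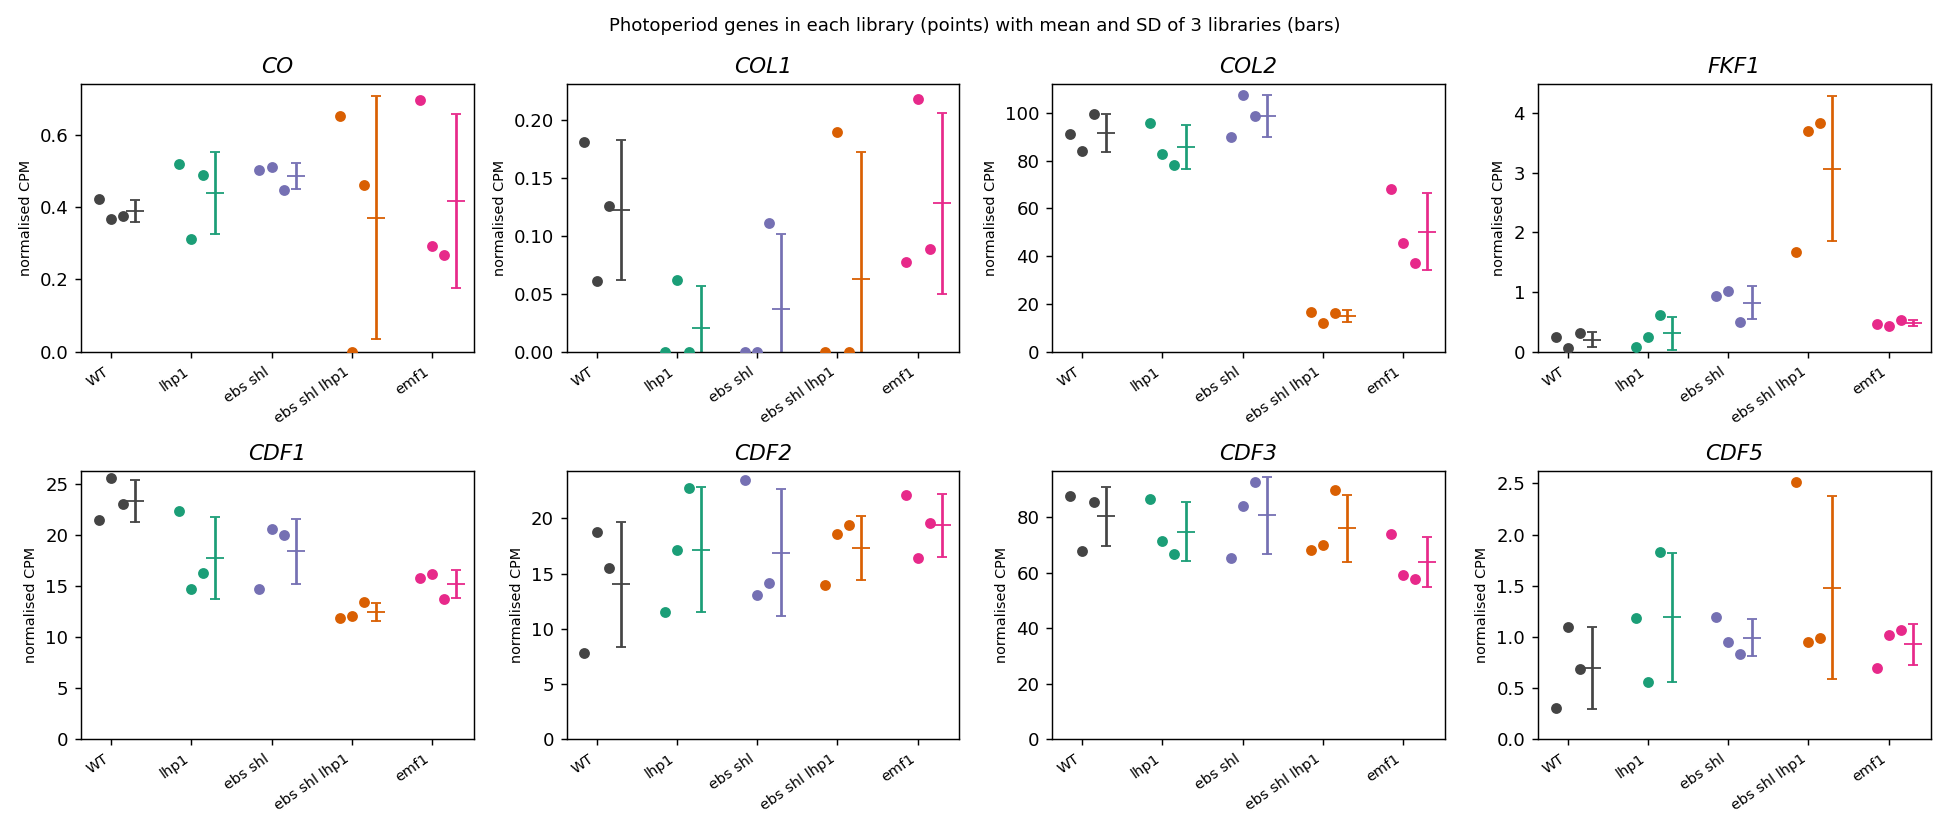
Normalised CPM (vertical axes, linear, each gene on its own scale, starting at 0) of the 8 photoperiod genes in the 5 labelled genotypes. Each point is 1 library, the short line is the mean and the bar is 1 SD of 3 libraries, with bars that reach below 0 clipped there. The ebs shl lhp1 libraries lie apart from all others for COL2 (12.2 to 16.8 CPM) and FKF1 (1.67 to 3.83 CPM).

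CO RNA was close to the limit of detection throughout. The counts of CO were 7, 6 and 6 in WT, 7, 5 and 8 in lhp1, and 8, 7 and 8 in the labelled double mutant. With the second kit they were 7, 0 and 7 for the labelled triple mutant and 9, 4 and 3 for emf1. Every genotype overlapped WT in normalised level except the labelled double mutant, whose lowest library, at 0.446 CPM, lay just above the highest of WT at 0.423 CPM. The library at 0 allows a level of up to 0.285 CPM, taking 3 counts as the limit, which covers counting error only. As ratios of summed counts, CO in each mutant was 0.988 to 1.24 times that in WT. The exact 95% counting intervals of the 4 ratios all lay between 0.458 and 2.42. These intervals cover counting error only, and differences within them were not detectable at this depth. A fit without the filter on low counts gave CO log2 fold changes of 0.16, 0.31, -0.04 and 0.12 for lhp1, the labelled double mutant, the labelled triple mutant and emf1 against WT. The 95% intervals of that fit, which also allow for spread between repeats, all lay between -1.34 and 1.51 on the log2 scale. The lowest of the adjusted p was 0.962. AT5G15843, annotated on the other strand, overlaps 1967 bp of the CO gene and is not among the counted loci. With the strand setting of the counting not given, the CO counts could include reads from that locus.

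COL1, the neighbour of CO in the genome, had 3, 1 and 2 counts in WT. It had 0, 1 and 0 counts in lhp1 and 1, 3 and 1 in emf1. The labelled double mutant had 0, 0 and 2, the labelled triple mutant 0, 2 and 0. The 6 libraries without a count allow levels of up to 0.183 to 0.279 CPM each, which is above the highest level measured in WT, 0.181 CPM. The ratio of summed counts to WT was 0.177 in lhp1, with an exact 95% counting interval of 0.00385 to 1.46, and 1.07 in emf1, with an interval of 0.259 to 4.22. All of COL1's exonic bases lie under a locus on the other strand, AT5G15845, which had 69 counts over the 15 libraries. Whether counting took strand into account is not given in the sources used here, so the COL1 level is uncertain for this reason also.

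COL2, a B-box and CCT domain relative of CO with little known effect on flowering time, was the CO-type gene with abundant RNA. It was measured at 91.1, 83.8 and 99.7 CPM in WT, 95.8, 82.9 and 78.2 CPM in lhp1, and 89.9, 107 and 98.8 CPM in the labelled double mutant. These 3 genotypes overlapped. In emf1 it was at 68.2, 45.4 and 37.1 CPM and in the labelled triple mutant at 16.8, 12.2 and 16.4 CPM. Both stood below every WT library, and the labelled triple mutant stood below every emf1 library. The means were 91.5 ± 7.94 CPM in WT, 50.2 ± 16.1 CPM in emf1 and 15.1 ± 2.53 CPM in the labelled triple mutant (SD, n = 3), so that the last kept 16.5% of the WT level.

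COL2 fell by 2.59 on the log2 scale in the labelled triple mutant against WT (SE 0.20, adjusted p = 1.2e-07, edgeR). In emf1 the log2 fold change was -0.86 (SE 0.18, adjusted p = 0.00087). Within the second RNA kit, COL2 was 3.31-fold lower in the labelled triple mutant than in emf1 (log2 fold change -1.73, SE 0.19, adjusted p = 1.4e-05). In that comparison 44.1% of tested genes differed, 23.6% higher and 20.5% lower. Within the first kit, the log2 fold change of COL2 was -0.10 in lhp1 (95% interval -0.45 to 0.25) and 0.11 in the labelled double mutant (-0.24 to 0.46). The level of COL2 carries a caution, because 31.8% of its exonic bases lie under the loci AT3G02370 and AT3G02390 on the other strand. Those loci had 599 and 299 counts over the 15 libraries, against 129 to 1772 counts of COL2 in each library.

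The interaction asks whether the difference made by the lhp1 label is the same with and without the ebs and shl mutations. It is the labelled triple minus the labelled double mutant, less lhp1 minus WT, on the log2 scale. COL2 was the 1 tested gene of the 6 to pass, with an interaction of -2.60 (SE 0.26, adjusted p = 6.7e-06), against 56.9% of all tested genes (26.6% higher, 30.3% lower). The labelled triple mutant is the only one of these 4 genotypes prepared with the second kit, so kit and genotype cannot be told apart in it. For the other 5 genes the interaction ran from -0.26 for CDF2 to 1.29 for FKF1, and the lowest adjusted p was 0.234.

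FKF1 RNA was scarce in WT and rose in the labelled triple mutant. Counts of FKF1 were 4, 1 and 5 in WT and 1, 4 and 10 in lhp1. They were 15, 14 and 9 in the labelled double mutant, 6, 6 and 6 in emf1, and 18, 39 and 58 in the labelled triple mutant. As normalised CPM this was 0.242, 0.0610 and 0.314 in WT and 1.67, 3.70 and 3.83 in the labelled triple mutant, whose 3 libraries lay above all the other 12. The lhp1 libraries, at 0.0741, 0.249 and 0.609 CPM, straddled those of WT. The labelled double mutant, at 0.942, 1.02 and 0.502 CPM, and emf1, at 0.463, 0.437 and 0.533 CPM, lay above every WT library and overlapped each other.

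The log2 fold change of FKF1 in the labelled triple mutant against WT was 3.86 (SE 0.56, adjusted p = 3.5e-05, edgeR). As a ratio of summed counts it was 15.4, with an exact 95% counting interval of 8.09 to 33.0. Against emf1, within the same kit, FKF1 was 6.39-fold higher (log2 fold change 2.68, SE 0.52, adjusted p = 0.00091). In the labelled double mutant FKF1 was 1.94 above WT on the log2 scale (95% interval 0.72 to 3.16), which missed the threshold with an adjusted p of 0.081. In emf1 the log2 fold change was 1.18 (-0.17 to 2.53, adjusted p = 0.15) and in lhp1 it was 0.63 (-0.76 to 2.02, adjusted p = 0.84). Between the labelled double mutant and lhp1 it was 1.31 (0.17 to 2.45, adjusted p = 0.25). FKF1 would not have passed the filter on low counts in WT and lhp1 alone, and it did pass with the triple mutant libraries left out. Its place among the tested genes therefore rests on its higher counts in the mutants.

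In lhp1 none of the 6 tested genes was called by edgeR or by DESeq2, and CDF1 alone had an unadjusted p under 0.05. Genome-wide 1.31% of tested genes differed in lhp1 (0.772% higher, 0.542% lower). In the labelled double mutant neither tool called any of the 6, and FKF1 and CDF1, 2 genes, had an unadjusted p under 0.05. There 7.83% of tested genes differed (5.31% higher, 2.52% lower). Between the labelled double mutant and lhp1 both tools again called 0 of 6, with 1 unadjusted p under 0.05, that of FKF1, while 5.06% of tested genes differed (3.67% higher, 1.39% lower).

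CDF1, the founding member of the CDF repressors, was highest in WT, at 21.4, 25.6 and 23.0 CPM. It was at 22.3, 14.7 and 16.3 CPM in lhp1, at 14.7, 20.5 and 20.0 CPM in the labelled double mutant, at 15.7, 16.2 and 13.7 CPM in emf1, and at 11.9, 12.0 and 13.5 CPM in the labelled triple mutant. All mutants except lhp1 lay below every WT library. The mean was 12.5 ± 0.862 CPM in the labelled triple mutant, 53.4% of the 23.4 ± 2.08 CPM of WT (SD, n = 3). The log2 fold change was -0.90 in the labelled triple mutant (SE 0.16, adjusted p = 0.00022, edgeR) and -0.62 in emf1 (SE 0.16, adjusted p = 0.0040). The difference between emf1 and the labelled triple mutant missed the threshold (log2 fold change -0.29, 95% interval -0.61 to 0.04, adjusted p = 0.18), although their libraries did not overlap. In lhp1 and the labelled double mutant the log2 fold changes were -0.40 (-0.71 to -0.09, adjusted p = 0.36) and -0.34 (-0.65 to -0.04, adjusted p = 0.25).

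CDF2, a repressor that acts alongside CDF1, varied more between repeats than between genotypes. It was at 7.79, 18.7 and 15.5 CPM in WT, 11.5, 17.2 and 22.8 CPM in lhp1, and 23.5, 13.0 and 14.2 CPM in the labelled double mutant. It was at 14.0, 18.6 and 19.4 CPM in the labelled triple mutant and at 22.1, 16.5 and 19.6 CPM in emf1. All genotypes overlapped, and the log2 fold changes against WT ran from 0.27 in the labelled double mutant to 0.47 in emf1 (95% interval -0.15 to 1.08). The lowest of the 4 adjusted p was 0.210.

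CDF3, which is also known from work on cold and drought tolerance, was the most abundant CDF and the flattest of the tested genes. It was at 87.5, 67.9 and 85.5 CPM in WT, 86.7, 71.3 and 66.6 CPM in lhp1, and 65.3, 84.1 and 92.7 CPM in the labelled double mutant. It was at 68.2, 70.0 and 89.9 CPM in the labelled triple mutant and at 74.1, 59.3 and 57.9 CPM in emf1, where its mean of 63.8 ± 8.98 CPM was the lowest. The log2 fold change was -0.33 in emf1 (95% interval -0.65 to -0.02, adjusted p = 0.084) and -0.08 in the labelled triple mutant (-0.39 to 0.24). In emf1 the unadjusted p was 0.057 by the edgeR F test, although the interval leaves out 0. The emf1 call of CDF3 depends on scaling. CDF3 was lower in emf1 with an adjusted p of 0.012 under upper-quartile scaling, where the log2 fold change was -0.51, and with one of 0.0021 under library totals alone, where it was -0.67. It also passed without the first emf1 library, at -0.44 (adjusted p = 0.043).

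CDF5 RNA was low, with 5 to 30 counts in a library. It was at 0.302, 1.10 and 0.691 CPM in WT, 1.19, 0.560 and 1.83 CPM in lhp1, and 1.19, 0.951 and 0.836 CPM in the labelled double mutant. It was at 2.51, 0.948 and 0.990 CPM in the labelled triple mutant and at 0.695, 1.02 and 1.07 CPM in emf1. Each mutant overlapped WT. The first library of the labelled triple mutant stood alone at the top, and the log2 fold change against WT was 1.06 (95% interval 0.04 to 2.08, adjusted p = 0.084). Its unadjusted p was 0.062 by the edgeR F test, although the interval leaves out 0. Without the second WT library the log2 fold change was 1.56 (adjusted p = 0.033). On the other strand lies AT1G69572, annotated as a natural antisense transcript of CDF5 and covering 59.9% of its exonic bases. AT1G69572 had 0 counts in all 15 libraries. Nearly all of its own exonic bases lie under CDF5, so that with the strand setting of the counting unknown that 0 sets no upper level for it, and the CDF5 level remains uncertain too.

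Levels per kilobase of exon, which allow genes to be set against each other, were ordered as follows in WT. CDF3 (42.3 ± 5.67 CPM per kilobase) and COL2 (40.6 ± 3.52) were highest and did not differ beyond their spread. CDF1 (16.4 ± 1.46) and CDF2 (5.79 ± 2.32) followed, each apart from its neighbours. CDF5 (0.362 ± 0.207), CO (0.133 ± 0.0103), FKF1 (0.0948 ± 0.0601) and COL1 (0.0722 ± 0.0354) came last. CO overlapped FKF1 in its libraries, and FKF1 overlapped COL1. In the labelled triple mutant COL2 stood at 6.71 ± 1.12 CPM per kilobase, next to CDF2 at 7.15 ± 1.21 and CDF1 at 8.75 ± 0.604, while CDF3 stood at 40.0 ± 6.34. FKF1, at 1.41 ± 0.557 CPM per kilobase there, was above CDF5 at 0.769 ± 0.462, within the spread of the 2 genes.

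Genes whose profile over the 15 libraries lay closest to that of each photoperiod gene were found by the root-mean-square difference between centred log2 profiles. For COL2, whose own spread was 1.02, the closest were ZFN1 (0.225), ACR1 (0.226) and NPC6 (0.236). For FKF1, with a spread of 0.878, they were ANAC087 (0.320), MYB92 (0.337) and CYP705A33 (0.349). For CDF1, with a spread of 0.333, they were PSBQ-2, CSP41A and NPX1, at 0.161 to 0.166. AHG11, DRL1 and SS4 were the closest to CDF2, at 0.212 to 0.294 beside a spread of 0.394. For CDF3 (spread 0.214) they were CDKC;1, UBQ11 and PUB45, at 0.131 to 0.144, and for CDF5 (spread 0.432) ATDUF1, IP5PI and KNAT4, at 0.316 to 0.322. With 0 to 9 counts in a library, profiles of CO and COL1 were too coarse to rank.

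The partners and output of these genes were read from a list of 39 further photoperiod genes, of which 35 were tested. GI, the partner of FKF1, was called in no genotype against WT with TMM scaling and all libraries in the fit. Its levels were 61.4, 45.2 and 51.8 CPM in WT, 57.7, 56.2 and 50.4 CPM in lhp1 and 68.5, 77.4 and 73.3 CPM in the labelled double mutant. They were 56.9, 53.8 and 60.3 CPM in the labelled triple mutant and 58.6, 38.6 and 29.0 CPM in emf1. The labelled double mutant lay above WT and the others overlapped it. In emf1 GI was lower with upper-quartile scaling (log2 fold change -0.50, adjusted p = 0.028) and with library totals (-0.66, adjusted p = 0.0060), and it was also called there without the first emf1 library. In the labelled double mutant GI was called when only the compared groups entered the fit (adjusted p = 0.032). ZTL and LKP2, the 2 other members of the FKF1 receptor family, rose in both emf1 and the labelled triple mutant. ZTL went from 56.4 ± 3.01 CPM in WT to 105 ± 8.25 CPM and 90.1 ± 11.7 CPM, and LKP2 from 16.0 ± 1.64 CPM to 27.7 ± 1.64 CPM and 26.9 ± 0.535 CPM.

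FT, the florigen gene that CO activates and CDFs repress, had 1, 0 and 1 counts in WT. It had 15, 38 and 17 counts in lhp1 while the labelled double mutant had 28, 39 and 33, and both lay above WT without overlap, as did the 19, 2 and 4 counts of the labelled triple mutant. In emf1 it had 3, 0 and 0 counts. A library without an FT count allows up to 0.183 to 0.267 CPM. The ratio of summed counts to WT was 37.2 in lhp1 (exact 95% counting interval 9.92 to 313), 51.4 for the labelled double mutant (13.9 to 430) and 16.8 for the labelled triple mutant (4.18 to 146). It was 1.93 in emf1 (0.221 to 23.1). FT passed the test in the first 3, with adjusted p of 0.028, 0.0031 and 0.0085 (edgeR). The call in lhp1 was lost when any 1 of the WT libraries or the first or second lhp1 library was left out, with adjusted p of up to 0.144. Without the first library of the labelled triple mutant, its FT call was lost too. TSF, the paralogue of FT, was at 0 in 13 libraries.

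Against WT, edgeR called 1 of the 35, FT, in lhp1 and again FT for the labelled double mutant, and DESeq2 also called 1 in each. In the labelled triple mutant 14 of 35 were higher and 13 lower, with a median log2 fold change of 0.11 beside -0.02 over all tested genes, of which 70.3% were called. In emf1 14 were higher and 9 lower, with a median of 0.15 beside -0.03, and 64.6% of all tested genes were called. The emf1 split depends on scaling, since 9 were higher and 15 lower when library totals alone were used. In the labelled triple mutant that scaling gave 10 higher and 15 lower.

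**Figure D2:**
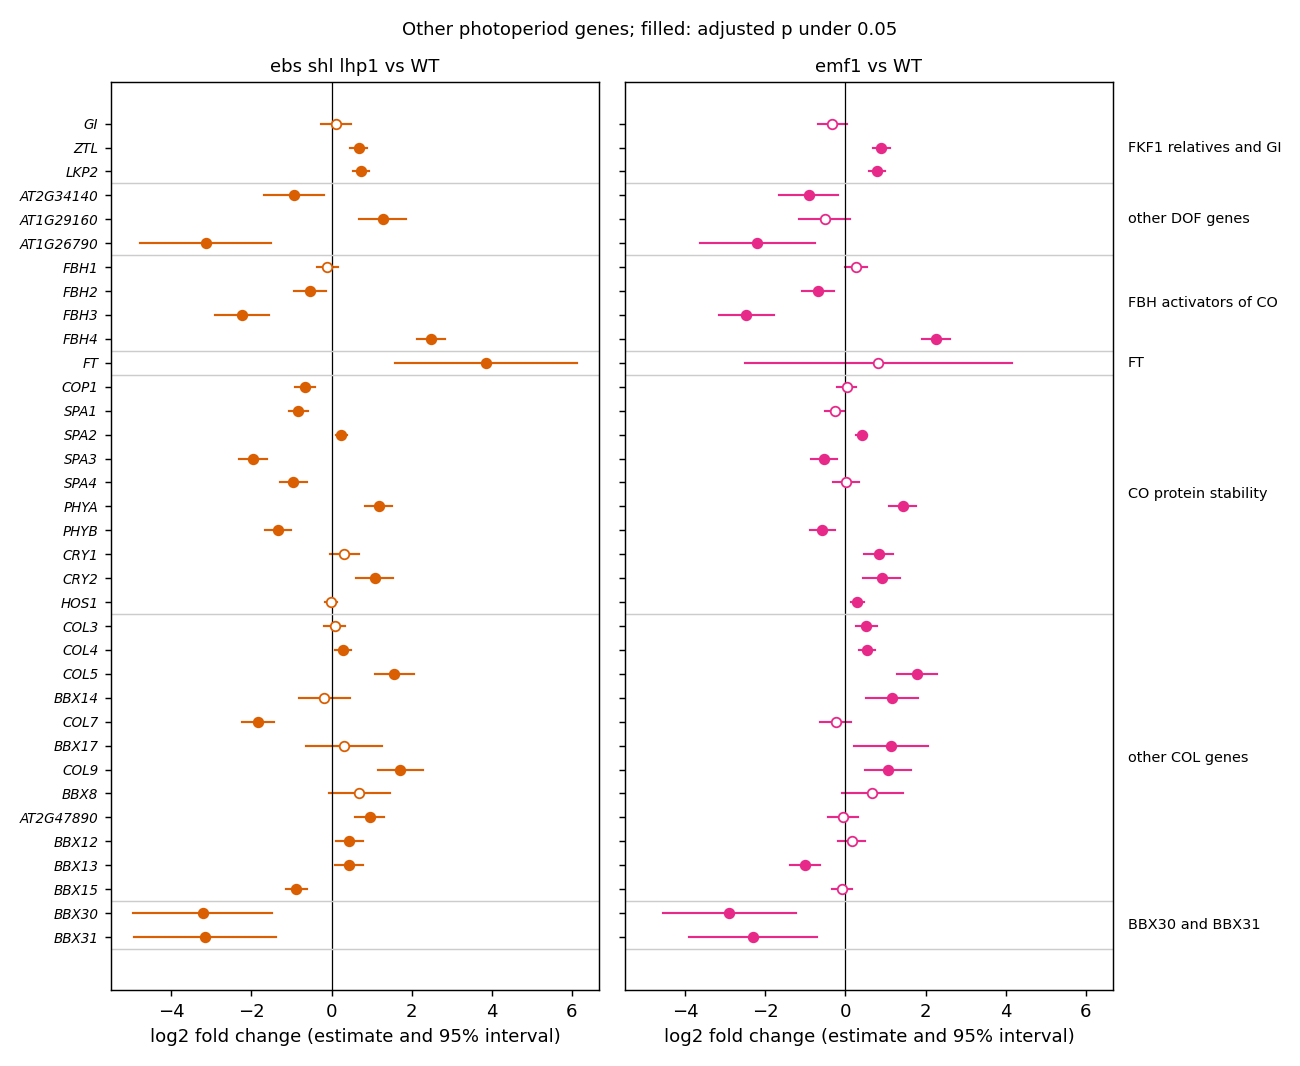
Log2 fold change against WT (horizontal axes, same scale, with 95% intervals) of the other photoperiod genes that were tested, in ebs shl lhp1 (left) and emf1 (right), grouped by role. Filled points passed an adjusted p under 0.05. FBH3 and FBH4 point in opposite directions in both panels, and BBX30 and BBX31 lie below 0 in both.

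The FBH proteins are bHLH activators of CO transcription, and their genes went in different directions. FBH4 rose from 10.8 ± 0.823 CPM in WT to 60.2 ± 13.2 CPM in the labelled triple mutant and 51.8 ± 10.2 CPM in emf1 (log2 fold changes 2.48 and 2.26, SE 0.18 each, adjusted p = 8.4e-08 and 3.9e-07). FBH3 fell from 48.3 ± 3.83 CPM to 10.2 ± 2.01 CPM and 8.59 ± 6.47 CPM (log2 fold changes -2.24 and -2.47). FBH2 was lower in both, at -0.54 and -0.69, and FBH1 passed in neither. On the other strand from FBH4, AT2G09350 overlaps 681 bp of the gene and is not among the counted loci. AT2G42270, with 8555 counts over the 15 libraries, lies over 7.46% of FBH4's exonic bases, also on the other strand. Of 3 other CDF-type DOF genes, 1 was higher and 2 lower in the labelled triple mutant, and 0 higher and 2 lower in emf1. Of all tested genes, 70.3% were called in the labelled triple mutant and 64.6% in emf1. AT1G26790, at 1.24 ± 0.738 CPM in WT, fell in the labelled triple mutant (log2 fold change -3.14, SE 0.83, adjusted p = 0.0039) and in emf1 (-2.21, adjusted p = 0.017). The emf1 call was lost without the first WT library or without either the second or the last emf1 library, with adjusted p of up to 0.088. AT1G29160 was higher in the labelled triple mutant, at 5.29 ± 1.43 CPM against 2.16 ± 0.429 CPM in WT.

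BBX30 and BBX31 encode B-box microProteins that bind CO and hold it in a repressor complex. Both fell in the labelled triple mutant, with log2 fold changes of -3.21 and -3.15 (adjusted p = 0.0051 and 0.0065), and in emf1, with -2.90 and -2.31 (adjusted p = 0.0081 and 0.022). The emf1 libraries of BBX31 overlapped those of WT, and 4 of 14 alternatives lost its emf1 call, among them leaving out the first WT library or the second or last emf1 library, with adjusted p of up to 0.105. Their WT levels were low, 1.82 ± 1.27 CPM and 3.27 ± 2.08 CPM. Of the 10 genes that act on CO protein stability, 3 were higher and 5 lower in the labelled triple mutant, and 5 were higher and 2 lower in emf1, where library totals alone gave 3 and 4. Among them, chosen after their values were seen, PHYA rose in both (log2 fold changes 1.18 and 1.43) and PHYB fell in both (-1.34 and -0.58). SPA3, a partner of the ubiquitin ligase COP1, fell from 101 ± 10.9 CPM to 25.9 ± 2.14 CPM and 69.4 ± 21.3 CPM. Over all tested genes the shares called were 34.6% higher and 35.7% lower in the labelled triple mutant, and 30.7% and 33.9% in emf1. Of the 12 tested COL genes other than COL1 and COL2, 6 were higher and 2 lower in the labelled triple mutant, and 6 higher and 1 lower in emf1. With upper-quartile scaling or library totals only 3 were higher in the labelled triple mutant, and with library totals 3 were higher and 3 lower in emf1. COL2 was therefore 1 of 3 COL genes that fell in the labelled triple mutant, beside COL7 and BBX15, picked out after their values were seen.

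Between the labelled triple mutant and emf1, prepared with the same kit, 4 of the 35 were higher and 12 lower in the labelled triple mutant, beside 23.6% higher and 20.5% lower of all tested genes. With library totals alone the split was 6 higher and 8 lower. FT was higher (log2 fold change 3.04, SE 1.11, adjusted p = 0.038), as were AT1G29160 (1.80, SE 0.32, adjusted p = 0.00046) and BBX13 (1.46, SE 0.19, adjusted p = 4.6e-05). COL7 was lower (-1.59, SE 0.21, adjusted p = 4.3e-05). The FT difference lost its call without the first library of the labelled triple mutant and without either the second library of emf1 or the last one. Of the 10 genes for CO protein stability, 7 were lower in the labelled triple mutant than in emf1 and 0 higher (5 and 0 with library totals). Between the labelled double mutant and lhp1, 0 of 35 passed in edgeR or DESeq2, with 3 at an unadjusted p under 0.05. For the interaction 9 of 35 were called above 0 and 13 below, beside 26.6% and 30.3% of all tested genes (6 and 16 with library totals).

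Of 10 circadian clock genes tested, 5 were higher and 4 lower in the labelled triple mutant, where 70.3% of all tested genes were called, and 3 higher and 2 lower in emf1, where 64.6% were. In lhp1 and the labelled double mutant edgeR and DESeq2 called 0, and 0 and 1 had an unadjusted p under 0.05. The 4 lower ones in the labelled triple mutant were CCA1 (142 ± 15.3 to 41.0 ± 5.89 CPM), LHY (141 ± 24.6 to 25.5 ± 7.56 CPM), RVE8 (27.7 ± 6.65 to 12.2 ± 4.76 CPM) and PRR9 (39.9 ± 12.8 to 18.7 ± 3.47 CPM). The 5 higher ones were PRR7 (114 ± 12.2 to 352 ± 24.2 CPM), PRR5 (1.76 ± 0.510 to 15.7 ± 7.72 CPM), TOC1 (13.7 ± 1.44 to 29.7 ± 2.44 CPM), LUX (3.76 ± 1.02 to 12.9 ± 1.57 CPM) and ELF3 (13.9 ± 3.17 to 29.9 ± 3.99 CPM). ELF4 was called neither there (log2 fold change 1.59, adjusted p = 0.11, edgeR) nor in emf1 (0.75, adjusted p = 0.49). Of the exonic bases of LUX, 17.8% lie under AT3G46650 on the other strand, which had 1171 counts over the 15 libraries. The RNA of FKF1 and CDF1, like that of CDF2, CDF3, CDF5 and GI, cycles over the day. With all libraries in the fit CDF2, CDF3, CDF5 and GI were not called in the labelled triple mutant (log2 fold changes 0.31, -0.08, 1.06 and 0.11). In emf1 LHY (log2 fold change -1.09, adjusted p = 0.0050) and PRR9 (-1.05, adjusted p = 0.013) were lower than in WT, and PRR7 (1.10), LUX (0.97) and ELF3 (0.96) were higher, each in the direction seen in the labelled triple mutant. The PRR9 call in emf1 was lost without the first WT or the last emf1 library (adjusted p up to 0.0634). CCA1 in emf1 was at 144 ± 24.4 CPM and TOC1 at 14.5 ± 3.62 CPM, and neither passed the test against WT. The part of harvest time in the FKF1, COL2 and CDF1 values was not tested.

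**Figure D3:**
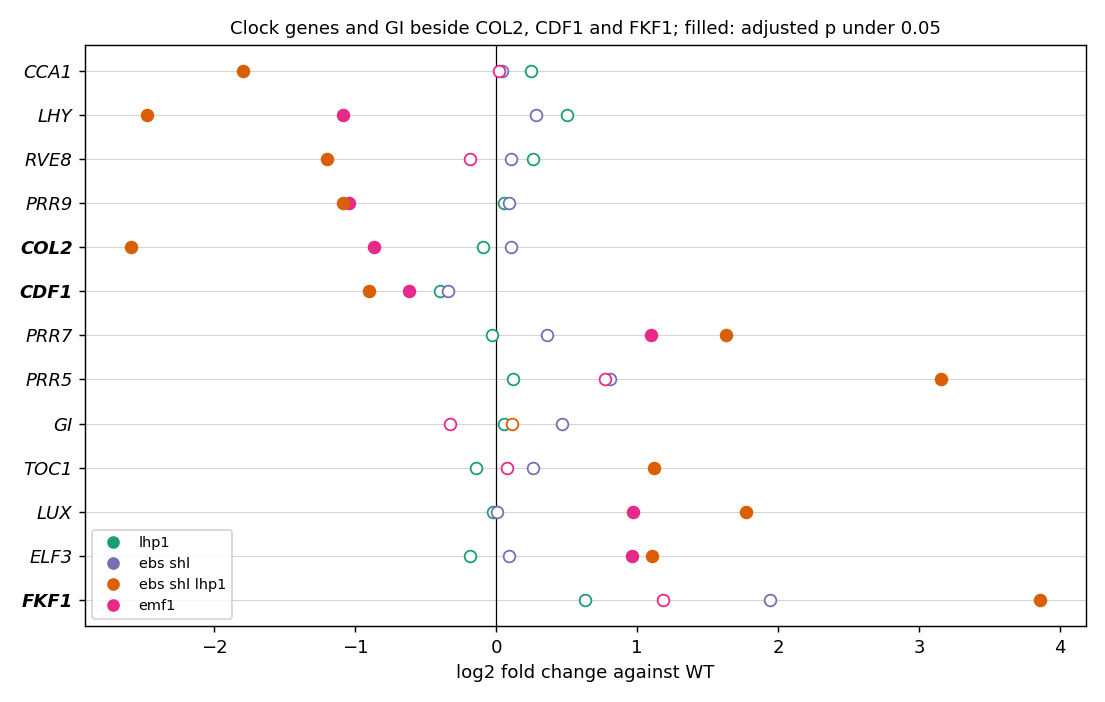
Log2 fold change against WT (horizontal axis) of 9 clock genes and GI beside COL2, CDF1 and FKF1 (bold) in the 4 mutant genotypes as labelled. ELF4, the other clock gene tested, is not drawn. Filled points passed an adjusted p under 0.05 in edgeR. In ebs shl lhp1 CCA1, LHY, RVE8, PRR9, COL2 and CDF1 lie below 0, and PRR7, PRR5, TOC1, LUX, ELF3 and FKF1 lie above 0.

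Tissue markers also moved with these genotypes. CO, FT and the CDF genes act in phloem companion cells, and 6 of 6 companion-cell markers, SUC2 and AHA3 among them, were lower in both emf1 and the labelled triple mutant, where 33.9% and 35.7% of all tested genes were lower. Their summed level was 323 to 451 CPM in WT, 382 to 403 CPM in lhp1, 324 to 370 CPM in the labelled double mutant, 87.1 to 137 CPM in the labelled triple mutant and 134 to 152 CPM in emf1. None of the 6 was at 0 in any genotype. Between the labelled triple mutant and emf1, 2 of the 6 differed, both lower in the labelled triple mutant, and with library totals 1 was higher and 1 lower. Whole seedlings were sequenced, so that fewer cells of a type and less RNA per cell cannot be told apart. Of 9 root markers 8 were lower and 1 higher in the labelled triple mutant and 7 lower in emf1, where AGP30 was at 0 in both. Their sum, most of it PYK10, was 1353 to 1600 CPM in WT, 2358 to 3133 CPM in the labelled triple mutant and 1246 to 1377 CPM in emf1. Of 9 leaf markers 5 were lower in the labelled triple mutant (8 with library totals), and 6 were higher and 1 lower in emf1 (2 and 2 with library totals), with sums of 54108 to 58330 CPM in WT, 43767 to 52488 CPM in the labelled triple mutant and 73016 to 83127 CPM in emf1. Of 5 flower markers all were higher in every mutant except emf1, where 3 were. Over all tested genes 0.772% were higher in lhp1, 5.31% in the labelled double mutant, 34.6% in the labelled triple mutant and 30.7% in emf1. The flower markers summed to 4.08 to 5.25 CPM in WT and 217 to 243 CPM in the labelled double mutant. In lhp1 they summed to 179 to 201 CPM, most of it SEP3 (122 to 142 CPM). In the labelled triple mutant they summed to 327 to 437 CPM, most of it PI (302 to 374 CPM). In emf1 they summed to 143 to 175 CPM, most of it PI (137 to 171 CPM). SEP3 was at 7.59 to 31.2 CPM in the labelled triple mutant and 3.40 to 4.27 CPM in emf1. Seed markers summed to at most 0.793 CPM in WT, 0.311 to 3.23 CPM in lhp1 and 28.2 to 30.3 CPM in the labelled double mutant. They summed to 85.3 to 116 CPM in the labelled triple mutant and 48.9 to 68.8 CPM in emf1. In the labelled double mutant, the labelled triple mutant and emf1 most of the sum was M17 and PAP85. OLEO1 and EM1 were at 0 in WT, and EM1 was at 0 in emf1. The part of tissue makeup in the COL2, FKF1 and CDF1 values was not tested.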

How the data were processed

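Per the labels' protocols, libraries were made from total RNA of whole seedlings with a stranded mRNA kit. The deposited values are raw counts of reads per locus, made by the authors. TopHat2 2.1.1, HTSeq, edgeR and the TAIR10 build are named in the submitters' processing notes, with the strand setting not given in the sources used here. The reference at hand is TAIR10.1, so names, exon lengths and overlaps came from it and no coordinates are given. All 279 organelle loci had 0 counts.

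Models were run with edgeR 4.0.16 and limma 3.58.1 under R 4.3.3. After filterByExpr, 20477 loci were left. A joint fit of the 15 libraries, with TMM factors from 0.817 up to 1.146 and a mean for each genotype, gave 7 comparisons by the quasi-likelihood F test. P-values were adjusted by Benjamini-Hochberg over all tested loci, with a threshold of 0.05. CPM divides counts by the library total times the TMM factor. SEs are the absolute log2 fold change over the root of F, and 95% intervals are 1.96 SEs either side. The F test allows for a spread estimated from few libraries and the factor 1.96 does not, so these intervals are somewhat too narrow. Profiles used log2(CPM + 0.5). The labels call the samples biological repeats. Chi-square over degrees of freedom between repeats was 4.37 to 24.3, so none was a copy of another.

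The 8 genes and all lists were chosen with earlier results of these data known. Named were the 8 genes, the 4 called photoperiod genes with the largest absolute change per comparison, GI, FT and AT1G69572 in every library, clock genes by genotype, and the 3 closest profiles per gene. Other genes were named after their values were seen. Alternatives were DESeq2 1.42.0, other scalings, no filter, a filter of 1 CPM in 3 libraries, the compared groups alone, a replicate block and leaving out each library. The fit was tested on simulated counts in which only a small share of genes changed. That setting is unlike emf1 and the labelled triple mutant, so it does not check the scaling there.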

Additional observations from a re-analysis of the deposited data

Results flagged for a closer look

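The difference between lhp1-labelled and unlabelled libraries was not the same with and without the ebs and shl mutations for 1 of the 6 tested genes, COL2, and for 22 of the 35 other photoperiod genes and 9 of the 10 clock genes, by a test of the interaction itself in edgeR. Values are given for COL2 and for the 4 of the 35 with the largest interaction. In each case the labelled triple mutant is the only one of the 4 genotypes made with the second RNA kit, so kit and genotype cannot be told apart, and 56.9% of all tested genes passed this test.

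COL2 had an interaction of -2.60 on the log2 scale (SE 0.26, adjusted p = 6.7e-06), with levels near 90 CPM in WT, lhp1 and ebs shl and of 15.1 CPM in the labelled triple mutant. FT had one of -6.51 (SE 1.23, adjusted p = 0.00058), from 2 counts in WT, 70 in lhp1, 100 in ebs shl and 25 in the labelled triple mutant. AT1G26790 had one of -4.11 (SE 1.00, adjusted p = 0.0033) and BBX31 one of -2.87 (SE 1.15, adjusted p = 0.046), both at low levels. The BBX31 interaction lost its call in 8 of 20 alternatives, each leaving out 1 library, with adjusted p of up to 0.138. FBH4 had one of 2.61 (SE 0.25, adjusted p = 5.4e-06), at 10.8 CPM in WT, 9.59 CPM in lhp1, 11.0 CPM in ebs shl and 60.2 CPM in the labelled triple mutant. The groups of 3 libraries are too small for a search for single libraries that stand apart.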

How the results depend on the processing

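Of 620 recomputed log2 fold changes of the 6 tested photoperiod genes, 616 kept their side of the threshold, 0 lost a call and 4 gained one, namely CDF3 in emf1 in 3 settings and CDF5 in the labelled triple mutant in 1. COL2 in the labelled triple mutant ranged from -2.80 to -2.46, FKF1 from 3.45 to 4.27 and CDF1 from -1.11 to -0.82. Counts over all genes moved more. In lhp1 269 became 507 with DESeq2 and 471 with only the compared groups, and 144 to 209 when a library was left out. In ebs shl 1604 became 950 to 1119 when a library was left out. For ebs shl against lhp1 1036 became 2274 with only the compared groups and 564 to 732 when a library was left out. Library totals alone moved the median of all genes by -0.36 in emf1, -0.23 in the labelled triple mutant, 0.17 between these and -0.38 in the interaction. With them the higher share of calls went from 47.5% to 26.6% in emf1, 49.2% to 38.2% in the labelled triple mutant, 53.5% to 66.1% between these, 58.7% to 69.8% in lhp1, 67.8% to 77.9% in ebs shl and 46.8% to 28.3% in the interaction. Upper-quartile scaling gave 36.3% in emf1 and 36.8% in the interaction.

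Same-numbered libraries did not as a rule deviate together in the compared genotype pairs (correlations of -0.378 to 0.235). The highest was that of the first lhp1 and WT libraries. Deviations from means of 3 libraries cannot show whether a number marks a shared harvest. The main fit treated the libraries as unpaired. With the replicate number as a block the fit called 12922 genes in emf1, 207 in lhp1, 1354 in ebs shl, 14157 in the labelled triple mutant, 8593 between the labelled triple mutant and emf1, 845 between ebs shl and lhp1 and 11299 in the interaction. Depth limits CO and COL1, with at most 9 counts in a library.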
